A study of Mus musculus with 21 samples.

Results

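The skeletal myosin heavy chain genes of the mouse were taken by name. They are Myh3, Myh2, Myh1, Myh4 and Myh8 on chromosome 11 and Myh7 on chromosome 14, which makes 6 of the 19304 protein-coding genes of at least 2 kb in the gene table. All 6 were found in that table. The measure is cover, the percent of a gene body that lies inside called H3K36me3 peaks, and it was computed in each of 20 peak lists.

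Myosin heavy chain is the motor protein of the thick filament, and a muscle cell chooses among several genes for it. Myh3 encodes the embryonic form and Myh8 the perinatal form, while Myh2, Myh1 and Myh4 encode the adult fast forms IIa, IIx and IIb. Myh7 encodes the slow form, which the heart also uses. H3K36me3, the trimethylation of lysine 36 of histone H3, is laid over the bodies of transcribed genes by SETD2, and it is usually denser toward their 3′ ends.

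C2C12 is a mouse myoblast line that can form multinucleated muscle cells in culture, and chromatin immunoprecipitation with sequencing (ChIP-seq) for H3K36me3 was done along its differentiation. Wild-type (WT) cells had 2 libraries in each of 5 groups: undifferentiated cells at day 0, then day 1 and day 5, each with control medium or with methionine-restricted medium. Methionine is the precursor of S-adenosylmethionine, the methyl donor of histone methyltransferases. Lines 1 and 2, labelled Setd2 knockout (KO), had 1 library each in the same 5 conditions. How these lines were made, whether each is 1 clone and how far methionine was lowered are not given in the sources used here. The labels do not say that replicates came from separate cultures, so p-values measure only the spread between these libraries, which may be technical.

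WT lists held 63423 to 87398 peaks, those of KO line 1 held 791 to 64530, and those of KO line 2 held 127 to 13880. Peak lists carry no read depth, so depth is unknown, and a gene without a peak is listed at 0, which does not show that the mark is absent. Setd2 itself was covered to between 45.6% and 82.8% in the 10 WT libraries and to at most 24.0% in KO line 1. It was at 0 in all 5 libraries of KO line 2, and such peaks say nothing of the protein. The summed cover of 6 myotube markers (Myog, Ckm, Acta1, Tnnt3, Tnni2 and Mymk) was 0 in both WT libraries of day 0 and between 199.9 and 209.9 at day 1 in control medium. The day 5 range was 468.6 to 507.5 with control and 63.0 to 86.7 with restricted medium. Of 6 myoblast markers, Myf6 was at 0 throughout, and the summed cover was 241.8 to 249.5 at day 0 and 236.0 to 252.6 by control day 5. With restriction it was at most 115.4 at day 1 and 117.8 to 118.5 at day 5, with Myod1 at 0. Myf5 was at 0 there and in the control libraries of day 5 as well. Markers of other cell types moved as well. The sum over 5 fibroblast markers, with Lum and Thy1 at 0 in each WT library, was 56.6 to 69.6 at day 0, then 118.3 to 122.6 by control and 70.2 to 70.8 by restricted day 5. The sum over 4 macrophage markers, with Ptprc and Adgre1 at 0 in each WT library, was 105.7 to 114.1 at control day 1 and 5.96 to 6.75 at restricted day 1. By day 5 it was 103.2 to 107.6 with control and 7.18 to 22.4 with restricted medium. Cd68 made up most of this sum, with 98.5% at control and 0 at restricted day 1, while Csf1r had 11.4% and 6.35%. The sum over 5 smooth muscle markers was 207.6 to 215.2 by control and 169.8 to 171.6 by restricted day 5, and that over 5 cardiac markers was 9.71 to 12.9 and 5.88 to 8.01, with Nppb and Nkx2-5 at 0 in each WT library. All 4 endothelial markers were at 0 in the WT libraries.

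Day 0 was compared with day 1 and day 5 in control medium to ask which myosin genes gain the mark as WT cells differentiate. At day 0 each of the 6 genes was at 0 in both libraries. At day 1 the embryonic gene Myh3 was covered to 29.8% and 22.4%, and the other 5 genes were still at 0. Of all 19304 genes, 53.8% and 54.4% had any cover at day 0, 53.2% and 53.0% at day 1, and 54.6% and 54.1% at day 5. At day 5 cover reached 5 of the 6 myosin genes in both libraries, and it differed widely among them. Myh3 was again the most covered, with 96.5% and 89.6% (mean 93.1% ± 4.89, SD, n = 2). The adult IIx gene Myh1 followed with 88.7% and 80.8% (84.7% ± 5.57, SD, n = 2). The slow gene Myh7 had 68.5% and 51.7% (60.1% ± 11.9, SD, n = 2). These 3 genes were covered over most of their bodies in both libraries. The adult IIb gene Myh4 had 43.4% and 45.3% (44.4% ± 1.31, SD, n = 2). The perinatal gene Myh8 had 31.4% and 15.6% (23.5% ± 11.2, SD, n = 2). Myh2, the adult IIa gene, had 2.37% in the first library and 0 in the second (1.19% ± 1.68, SD, n = 2). In this order, Myh3, Myh1, Myh7, Myh4, Myh8 and Myh2, no gene's libraries overlapped those of the next, but the closest neighbours, Myh3 and Myh1, were only 89.6% against 88.7% apart. With 2 libraries a gene, the order of neighbours was not tested.

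**Figure D1:**
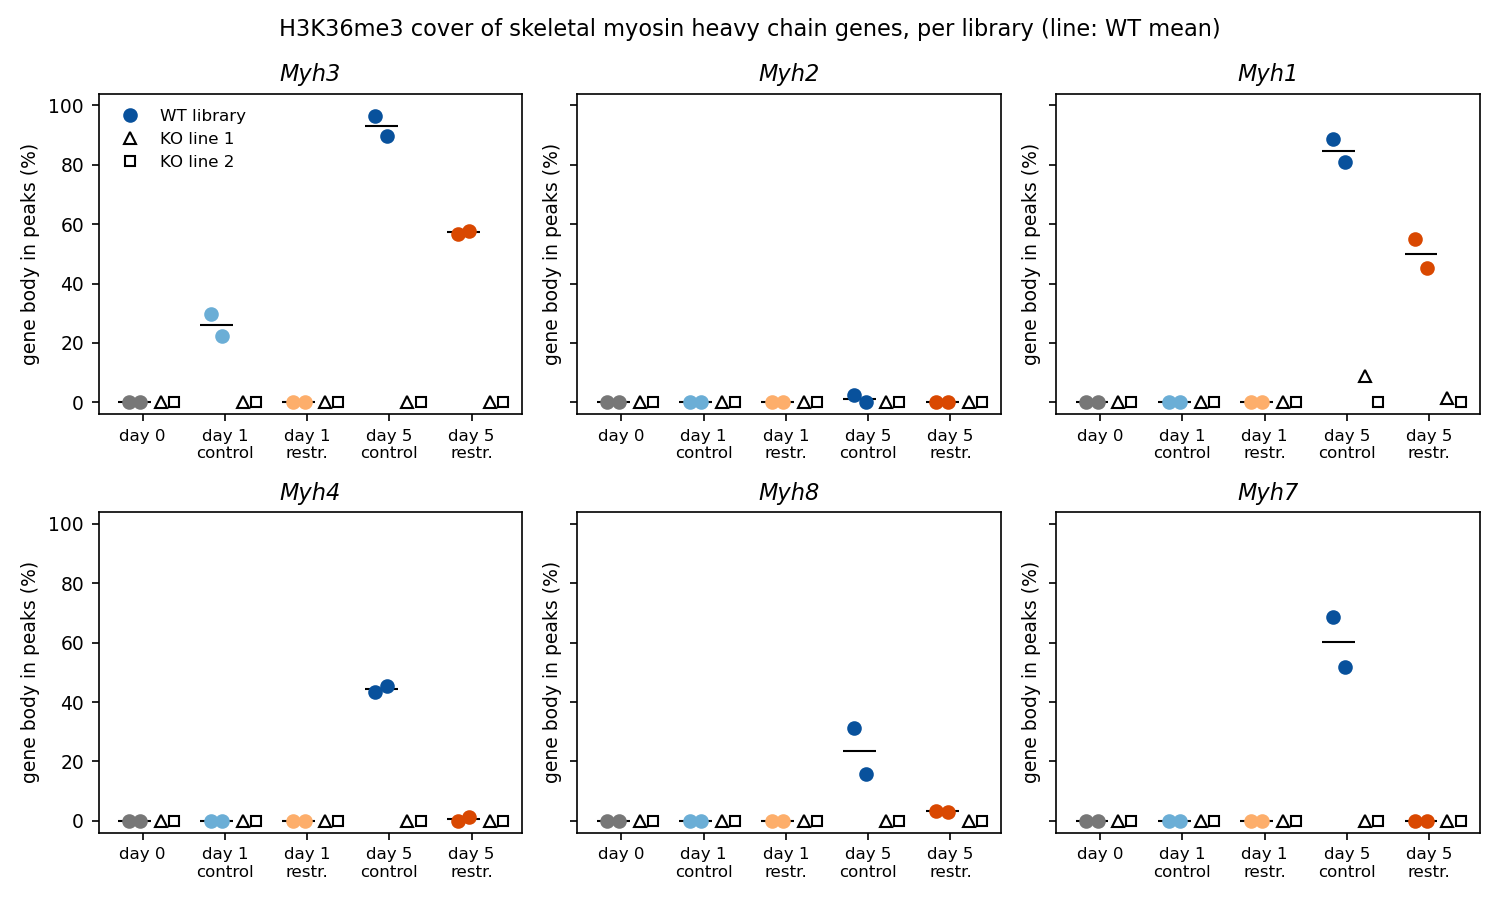
Percent of each gene body inside H3K36me3 peaks (vertical axis) in the day and medium groups (horizontal axis). Filled circles are WT libraries with a line at their mean, triangles are KO line 1 and squares KO line 2. Myh3 is the 1 gene with cover at day 1, at 29.8% and 22.4%, and the KO symbols stay at 0 except for Myh1 in line 1 at day 5.

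The differences were tested with limma, a linear model fitted across 9514 genes whose cover averaged 5% or more over the 10 WT libraries, with Benjamini-Hochberg adjustment. Myh2 fell under that limit and was not tested. From day 0 to day 1, 1 of the 5 tested members rose and 0 fell, where 0.967% of all genes tested rose and 5.67% fell, 6.63% in all. Myh3 rose by 26.1 points (SE 4.01, limma adjusted p = 0.0105), which ranked 46 among the genes tested, while the median gene fell by 5.30 points. This day 1 call was lost in 4 settings. With peaks of a −log10 q of at least 3, or with the WT lists shortened to equal covered length, the rise was 4.66 points (limma adjusted p = 0.627 and 0.743). In a fit of the day 0 and day 1 libraries alone limma gave an adjusted p of 0.135, and without the first day 1 library it gave 0.0764.

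From day 0 to day 5 in control medium, the 5 tested members rose, where 12.2% of all genes tested rose and 15.6% fell, 27.8% in all. Myh1, Myh4, Myh8 and Myh7 passed the limit on cover through their day 5 libraries alone, so a rise had to follow, and the count of 5 is a description. Myh3, which passes the limit from days 0 and 1 alone, rose by 93.1 points (SE 4.01, limma adjusted p = 1.77e-06), which ranked 5 among the genes tested. The differences of Myh1, Myh7, Myh4 and Myh8 were 84.7, 60.1, 44.4 and 23.5 points and are given with no test. All values at day 0 were 0, with no spread, which lowers the shared estimate of error for these genes. Over all genes the median change was −1.17 points.

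Between day 1 and day 5 in control medium Myh3 rose further, by 67.0 points (SE 4.01, limma adjusted p = 1.19e-05), and the other 4 tested members differed by the amounts above, since they were at 0 on day 1, and the same limit applies to them. In this comparison 17.1% of genes tested rose and 5.95% fell, 23.1% in all. The peaks behind these values differed in strength among the genes. With a −log10 q of at least 3, Myh3 kept 96.5% and 84.9% and Myh1 83.3% and 78.5%. Under the same limit Myh7 had 32.9% and 12.9%, Myh4 14.4% and 2.63%, and Myh8 was at 0 in both libraries. Myh4, Myh8 and Myh7 then fell below the limit of 5% mean cover and were not tested.

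Restricted and control medium were compared at each day to ask how methionine supply bears on the mark in WT cells. At day 1 all 6 genes were at 0 under restriction, so Myh3, at 29.8% and 22.4% in control medium, had no peak in either restricted library. Myh3 was lower by 26.1 points (limma difference −26.07, SE 4.01, adjusted p = 0.00142), 1 of 5 tested members lower and 0 higher. Over all genes tested 36% fell and 2.38% rose, 38.3% in all, and the median difference was −7.99 points. The other 5 genes were at 0 in both media on day 1 and could not fall. Of all 19304 genes, 51.6% and 50.2% had any cover in the restricted libraries of day 1. With peaks of a −log10 q of at least 3, or with lists of equal covered length, the difference was −4.66 points (limma adjusted p = 0.536 and 0.508). With each library centred on its median it was −10.89 points (limma adjusted p = 0.0610).

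At day 5 the 6 genes separated under restriction. Myh3 had 56.7% and 57.9% (57.3% ± 0.801, SD, n = 2), and Myh1 had 55.0% and 45.1% (50.1% ± 6.98, SD, n = 2). Both genes were below their control libraries without overlap and kept 61.5% and 59.1% of the control mean. Myh8 had 3.33% and 3.15%, or 13.8% of its control mean. Myh4 had 0 and 1.28%, or 1.44% of its control mean. Myh7, which had 60.1% in control medium, was at 0 in both restricted libraries, as was Myh2. Thus the embryonic and IIx genes were covered over about the same share of their bodies, and the IIb, perinatal and slow genes had little or no cover.

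The 5 tested members fell with restriction at day 5, where 41.5% of all genes tested fell and 4.32% rose, 45.8% in all, so a fall was common. Myh7, Myh4 and Myh8 passed the limit on cover through their control libraries of day 5 alone, so a fall had to follow, and the count of 5 is a description. Their differences were −60.12, −43.71 and −20.29 points and are given with no test. Myh3 and Myh1 pass the limit without those libraries. Myh3 fell by 35.8 points (SE 4.01, limma adjusted p = 2.18e-04) and Myh1 fell by 34.7 points (SE 4.17, limma adjusted p = 3.21e-04). The median of all genes tested was −9.16 points. With each library centred on its median, the falls were 19.1 points for Myh3 and 18.01 for Myh1, both still called by limma. The centred differences of Myh7, Myh4 and Myh8 were −43.45, −27.03 and −3.62 points. Centring also turned the split over all genes tested, from 411 higher and 3945 lower to 3757 higher and 1395 lower.

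The summed covers of the myotube, myoblast, fibroblast, macrophage, smooth muscle and cardiac markers were lower in the same comparison, with Myog and Tnni2 at 0 in both restricted day 5 libraries, and their part in the myosin values was not tested. In bulk chromatin, fewer cells that carry the mark on a gene and less of the mark per cell cannot be told apart.

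Restricted day 5 cells were also set against day 0, the common starting point. Myh3 was higher by 57.3 points (SE 4.01, limma adjusted p = 1.88e-05), which ranked 7 among the genes tested. Myh1 was higher by 50.1 points, given with no test for the reason above. Of the 5 tested members 2 were called higher, a description. Over all genes tested 4.05% were higher and 43.5% lower, 47.6% in all, with a median of −9.84 points. Myh8 differed from day 0 by 3.24 points and Myh4 by 0.638 points, neither called by limma (adjusted p = 0.547 and 0.787), and Myh7 was at 0 in both groups. Both libraries of Myh3 and of Myh1 thus had cover in restricted medium too, against 0 at day 0. The change with restriction was also compared between the days: it was more negative at day 5 for 3 of 5 tested members and more positive for 0, where 3.58% and 1.62% of all genes tested were called, 5.2% in all. Those 3, Myh1, Myh4 and Myh7, were at 0 in both media on day 1, so the difference equals their fall at day 5, and the count adds nothing to it.

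Along chromosome 11 the genes lie in the order Myh3, Myh2, Myh1, Myh4 and Myh8, all on the plus strand, followed by Myh13. In GRCm38.p6 coordinates Myh3 (gene 17883) is at chr11:67078273-67102291 and Myh2 (17882) at chr11:67171027-67197517. Myh1 (17879) is at chr11:67200102-67224577, Myh4 (17884) at chr11:67237812-67260447 and Myh8 (17885) at chr11:67277124-67308634. The span from the start of Myh3 to the end of Myh8 is 230.4 kb. Cover at day 5 did not follow this order: the mean in control medium ran 93.1%, 1.19%, 84.7%, 44.4% and 23.5%. Myh2, the gene with least cover, lies between the 2 genes with most. A gap of 68.7 kb separates it from Myh3, with 2.76% and 2.19% in peaks, and 2.58 kb separate it from Myh1, with 0 in both libraries. The single Myh2 peak was 0.629 kb long, 21.6 kb from the 5′ end of the gene.

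The gaps between the genes held few peaks, and the genes at the border differed. Beyond the 3′ end of Myh1, peaks ran on for 1.86 and 1.58 kb, so that 14.03% and 11.9% of the 13.2 kb gap before Myh4 was covered, with the antisense long noncoding RNA gene Myhas lying in that gap. The other gaps from Myh4 to Myh13 had at most 3.71%. Myh13, a myosin of eye and throat muscles at the far end, was at 0 in all 10 WT libraries, as was the next gene, Gas7. On the near side Sco1, which encodes a mitochondrial copper protein, had 76.6% and 60.5% at day 0, when every myosin gene was at 0. Its day 5 values were 79.5% and 75.0% with control and 82.5% and 87.4% with restricted medium. Adprm, the gene beyond Sco1, had 46.1% and 45.5% at the start, 79.4% and 65.9% by control day 5, and 46.6% and 43.2% by restricted day 5. The control values of Adprm at day 5 lay above the others without overlap, as those of the covered members did.

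**Figure D2:**
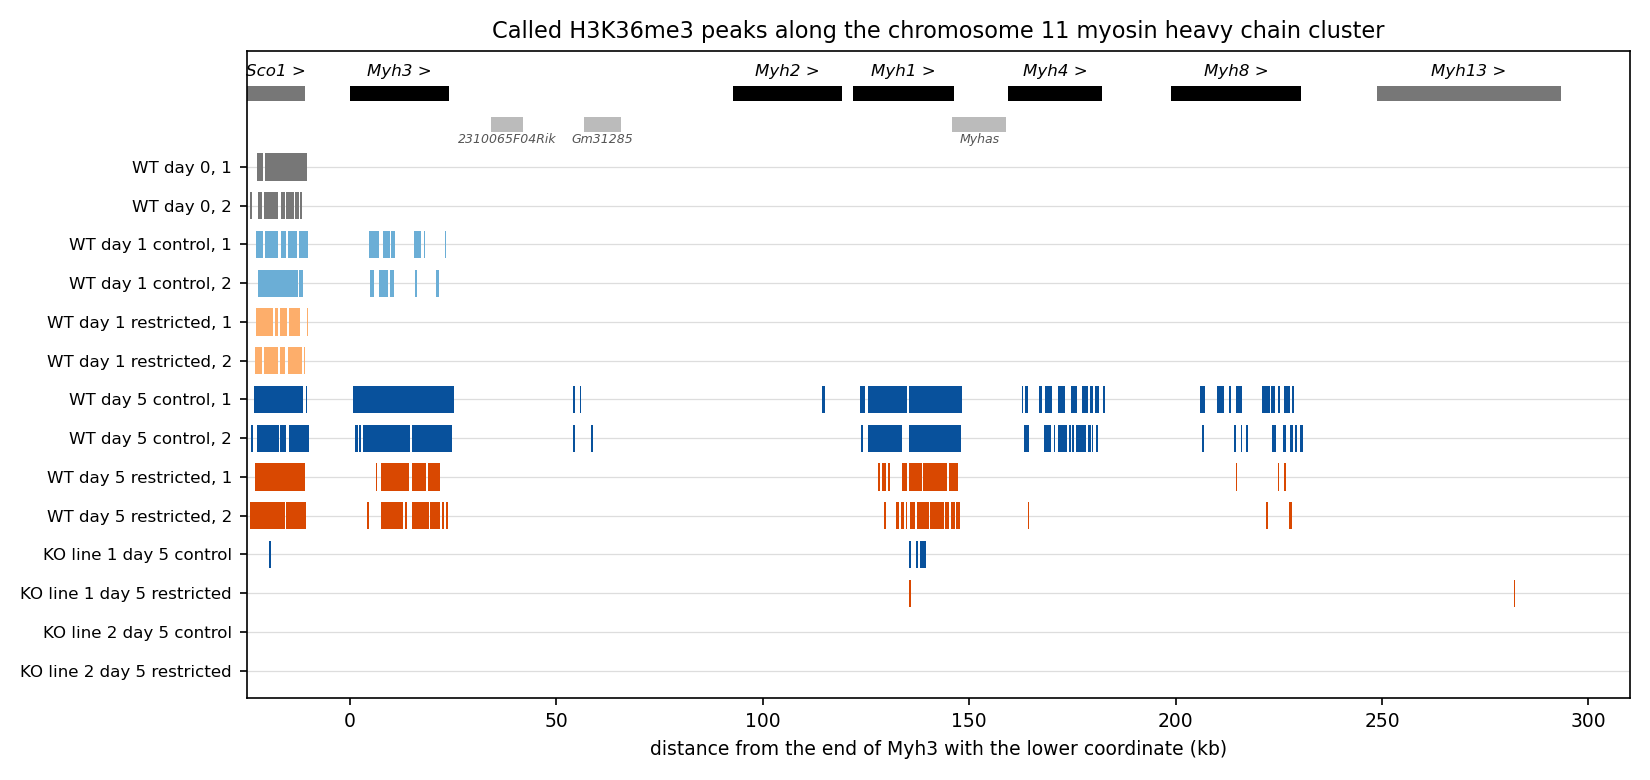
Called H3K36me3 peaks (coloured blocks) in 14 libraries, 1 row each, against distance in kb from the start of Myh3, with protein-coding genes above in black (members) or dark grey and long noncoding RNA genes in light grey, and > for the plus strand. Myh3 and Myh1 are filled in the 2 WT control rows of day 5, Myh4 and Myh8 hold scattered peaks, and Myh2 holds 1 peak of 0.629 kb.

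The length and position of the peaks separated the genes. In the first day 5 control library Myh3 lay under 1 peak of 24.3 kb that began 0.833 kb from the 5′ end of the gene and ran 1.12 kb past its 3′ end. That peak ranked 460 by length of the 87398 in its list, and the authors' −log10 q for the gene's top peak was 9.63, above 99.3% of that list. In the second library 4 peaks covered Myh3, the longest 11.3 kb. Myh1 lay under 3 peaks in each library, the longest 12.7 and 12.5 kb. Myh4 instead had 9 and 10 peaks of at most 2.34 kb, Myh8 had 9 in each library and Myh7 had 10 and 13. At day 1 the Myh3 peaks numbered 6 and 5, began 4.59 and 4.76 kb into the gene, and had a top −log10 q of 2.19 and 3.005.

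Each gene body was cut into 10 bins of equal length, counted from the 5′ end. At day 5 the cover of Myh3 and Myh1 was lower under restriction than in control medium, most of all over the 5′ part of the gene. Over the first 3 bins of Myh3, cover was 88.4% and 70.0% in control medium and 5.81% and 6.18% under restriction. Over its last 3 bins it was 100% in both control libraries and 64.2% and 80.5% under restriction. Myh1 had 69.7% and 58.9% over its first 3 bins in control medium and 11.8% and 0 under restriction. Its last 3 bins had 100% in both control libraries and 94.9% and 81.7% under restriction. In both genes the 5′ libraries of the 2 media did not overlap. Covered sequence began 6.22 and 4.21 kb into Myh3 and 6.02 and 7.58 kb into Myh1 under restriction.

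The same measure is given for other genes with high cover. Over the 983 of the tested genes with a strand in the table that had at least 80% cover in both day 5 control libraries, mean cover of the first 3 bins was 68.2% and 65.5% in control medium and 37.8% and 38.8% under restriction. Over the last 3 bins it was 96.9% and 96.2% in control medium and 86.5% and 87.0% under restriction. The difference between the 2 myosin genes and these genes was not tested. The less covered members also had more cover toward the 3′ end in control medium. Myh4 had 17.6% and 16.6% over its first 3 bins against 60.3% and 59.6% over its last, and Myh8 had 11.04% and 3.54% against 55.7% and 33.0%. Myh7 was highest in its middle 4 bins, with 81.2% and 69.9%.

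**Figure D3:**
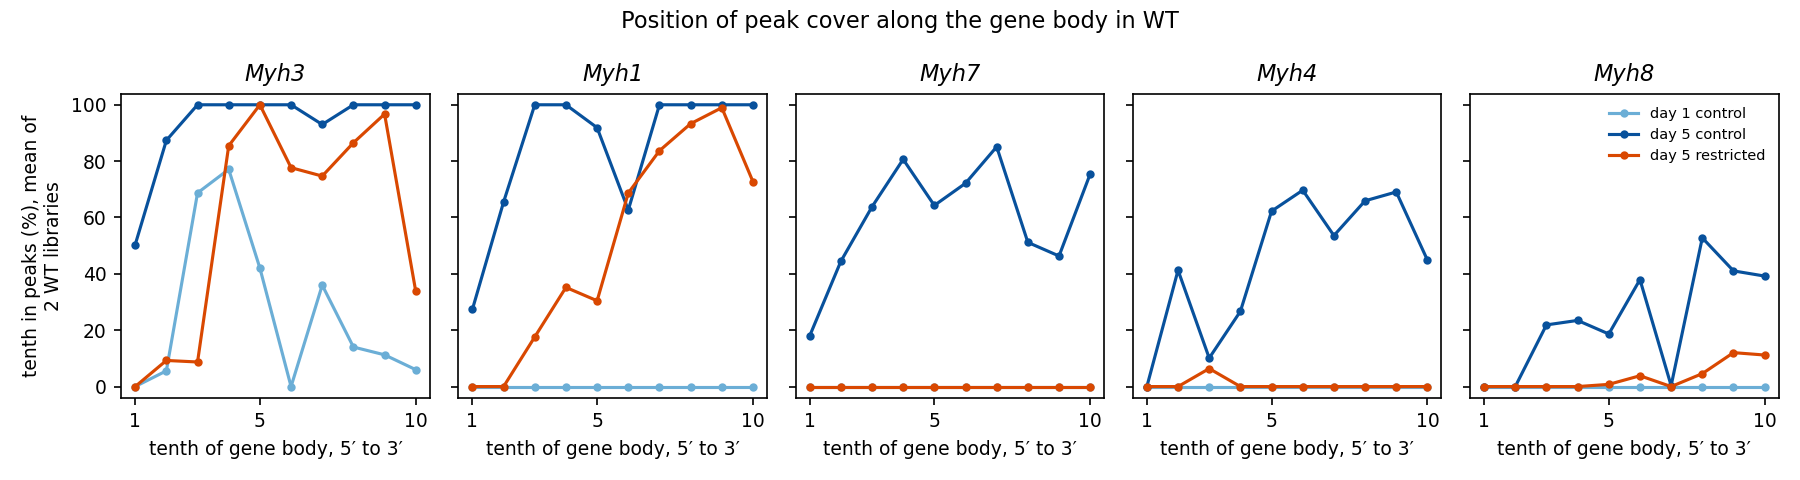
Percent of each of 10 equal bins of the gene body inside peaks, from the 5′ to the 3′ end, as the mean of 2 WT libraries, for the 5 members with cover in both day 5 control libraries. Under restriction the first bins of Myh3 and Myh1 lie near 0 while the later bins are covered, and Myh7 is at 0 along its whole length.

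Myh7 (gene 140781) lies on the minus strand of chromosome 14 at chr14:54970684-54994626, next to Myh6, the main heart myosin gene. Peaks at this locus cannot be given to 1 gene, since 96.2% of the Myh7 body is overlapped by other genes. These are mainly the long noncoding RNA genes Gm31251 and Mhrt on the opposite strand, and ChIP-seq peaks have no strand. Over the part that no other gene overlaps, Myh7 had 53.9% and 50.1% at day 5 in control medium, against 68.5% and 51.7% over the whole body. Mhrt had 75.0% and 42.8% there, and 0 in both restricted libraries. Myh6 had 0 and 4.20% in control medium and 1.49% and 0 under restriction. Ngdn, a housekeeping neighbour, had 79.97% and 75.95% in control medium and 69.9% and 70.4% under restriction.

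**Figure D4:**
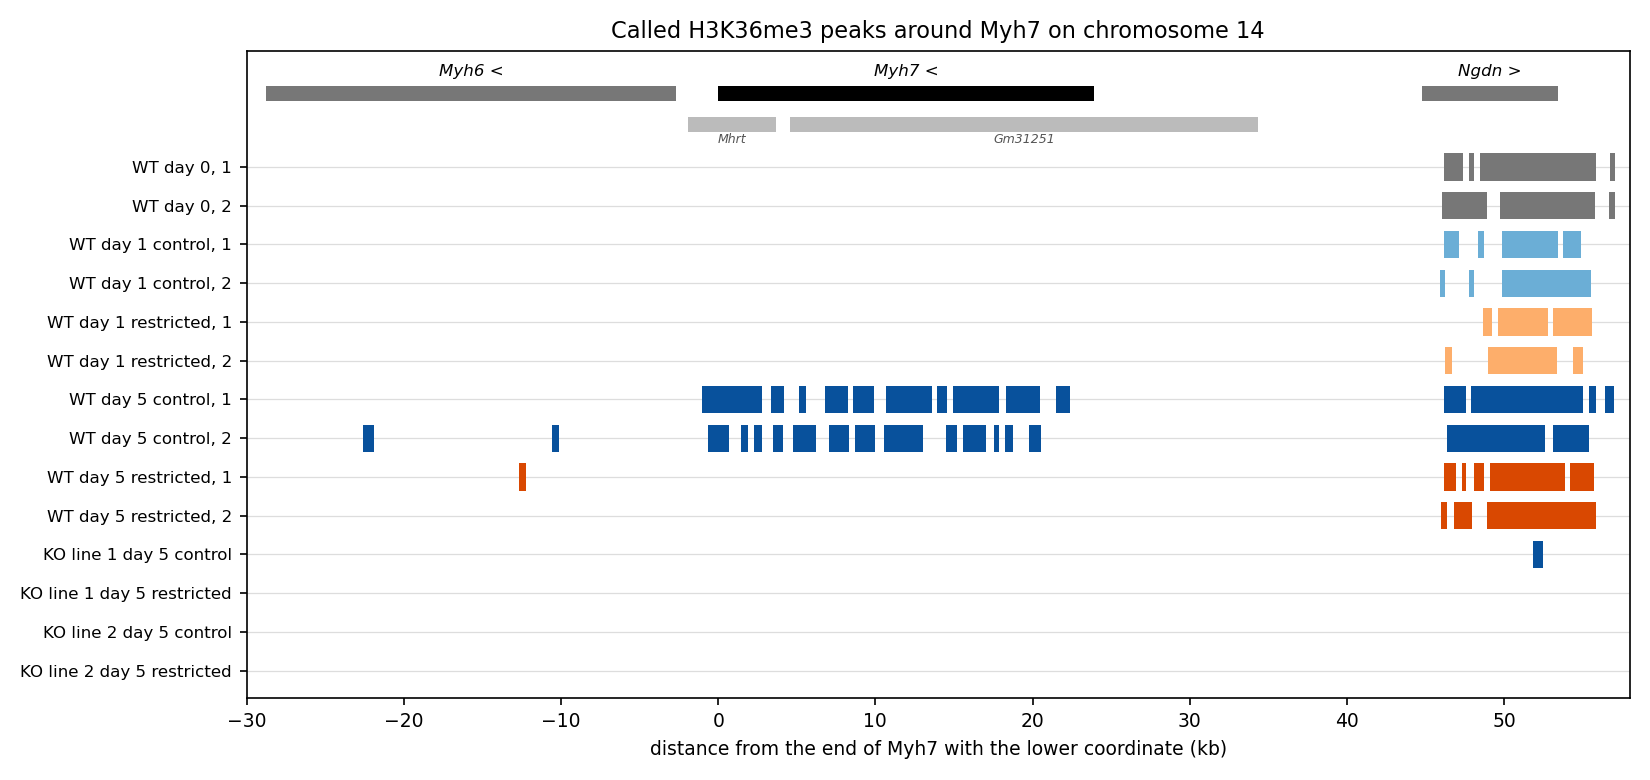
Called H3K36me3 peaks in 14 libraries around Myh7, against distance in kb from the end of the gene with the lower coordinate, which is its 3′ end because Myh7 is on the minus strand (<). Peaks over Myh7 appear in the 2 WT control rows of day 5 alone, while Ngdn on the right has peaks in each WT row.

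The sequences just upstream of the cluster genes are shown because a 14-base run before Myh2, with almost no cover, also lies before genes with cover. The sequences are the 250 bases before the start site of each gene in the RefSeq promoter table on GRCm38.p6, 5′ to 3′ on the plus strand. For Myh3 that site lies inside the listed gene, so its window, which ends at 67078299, runs past the start of the gene at 67078273. All 6 members had an entry, and no library had a peak in any of these 6 windows. Capitals mark a 14-base run, the letters TATAAA on the plus strand, and a match to the MEF2 motif. The windows are chr11:67078050-67078299 for Myh3, chr11:67170777-67171026 for Myh2, chr11:67199852-67200101 for Myh1, chr11:67237562-67237811 for Myh4 and chr11:67276874-67277123 for Myh8.
Myh3: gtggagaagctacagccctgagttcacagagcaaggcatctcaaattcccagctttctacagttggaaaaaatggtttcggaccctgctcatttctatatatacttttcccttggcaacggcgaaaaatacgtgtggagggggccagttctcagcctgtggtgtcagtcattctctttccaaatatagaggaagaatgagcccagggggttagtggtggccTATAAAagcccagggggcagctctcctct
Myh2: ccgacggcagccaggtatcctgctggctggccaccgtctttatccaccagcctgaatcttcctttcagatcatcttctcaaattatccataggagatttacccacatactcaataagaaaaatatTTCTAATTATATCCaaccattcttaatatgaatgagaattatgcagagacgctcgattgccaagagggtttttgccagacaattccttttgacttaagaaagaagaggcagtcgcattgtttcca
Myh1: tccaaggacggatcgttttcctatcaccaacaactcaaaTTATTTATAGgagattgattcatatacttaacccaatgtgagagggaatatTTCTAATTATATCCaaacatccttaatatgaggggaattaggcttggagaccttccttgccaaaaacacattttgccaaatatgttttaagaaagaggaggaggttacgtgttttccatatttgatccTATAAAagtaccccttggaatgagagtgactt
Myh4: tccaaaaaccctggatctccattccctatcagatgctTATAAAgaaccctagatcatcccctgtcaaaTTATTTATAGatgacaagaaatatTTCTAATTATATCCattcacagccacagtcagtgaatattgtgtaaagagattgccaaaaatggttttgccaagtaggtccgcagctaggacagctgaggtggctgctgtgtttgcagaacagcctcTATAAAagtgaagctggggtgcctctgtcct
Myh8: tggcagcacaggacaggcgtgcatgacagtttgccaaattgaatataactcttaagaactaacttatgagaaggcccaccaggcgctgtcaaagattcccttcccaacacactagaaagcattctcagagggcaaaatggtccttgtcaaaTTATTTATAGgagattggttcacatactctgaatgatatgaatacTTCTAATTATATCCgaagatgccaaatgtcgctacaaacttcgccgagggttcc

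The run TTCTAATTATATCC, searched on both strands, was found in 4 of 27025 windows of this length (0.0148%), those of Myh2, Myh1, Myh4 and Myh8. It was chosen as the longest run that these 4 windows share, so its presence in them is no finding. It begins 125 bases before the start of Myh2, 160 before Myh1, 158 before Myh4 and 54 before Myh8. Myh2 had 1.19% cover at day 5 and Myh1 84.7% with the run in both windows, and Myh3 had 93.1% without it. The MEF2 motif was found in the windows of Myh1, Myh4 and Myh8 and in 3.01% of all windows. The letters TATAAA, searched on both strands, were in the windows of Myh3, Myh1, Myh4 and Myh8 and in 12.97% of all windows, and on the minus strand they overlap the MEF2 match. The E-box CANNTG, the letters that MyoD and myogenin bind, was in those of Myh3, Myh4, Myh8 and Myh7 and in 66.0% of all windows. A match describes letters and is neither a binding site nor a cause, and where there is none, these letters are just not in this window.

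Myosin genes are known as hosts of microRNAs, and 3 such loci lie here. They are shown because the Myh7 and Myh6 hosts carry microRNAs with the same seed (bases 2 to 8, in capitals), while their hosts differed in cover. The mature sequences are from RefSeq on GRCm38.p6.
mmu-miR-6923-5p: gUGAGGGCaggaggauuggggugu
mmu-miR-208b-3p: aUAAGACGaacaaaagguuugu
mmu-miR-208a-3p: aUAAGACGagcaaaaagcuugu

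The hairpin Mir6923, in Myh3, lay wholly inside peaks in all 4 WT libraries of day 5. Mir208b, in Myh7, lay wholly inside a peak in the second control library of day 5 and outside peaks in the first. Mir208a, in Myh6, was at 0 in each WT library. Peaks over a hairpin report the mark on the host gene and not the microRNA.

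The Setd2 knockout lines were set against WT to see whether the myosin genes still carry called peaks in them. In the KO lines 5 of the 6 genes were at 0 in all 10 libraries. The exception was Myh1 in KO line 1, with 8.92% at day 5 in control medium, from 3 peaks, and 1.44% at day 5 under restriction, from 1 peak. These peaks lay from 13.6 kb into the gene, with a top −log10 q of 2.66 and 2.09. In KO line 2 each member was at 0 in each library. Of all 19304 genes, 1.70% to 42.0% had any cover in the libraries of KO line 1. In those of KO line 2 it was 0.275% to 11.5%, so a gene at 0 was common in both lines.

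The 2 KO values lay under the 2 WT values for 5 of 6 members at control day 5 and for 3 of 6 at restricted day 5. Of all 19304 genes, 47.7% and 43.6% did so. For control day 1 this held for 1 of 6, Myh3, against 51.2% of those genes. At day 0 and at restricted day 1 it held for 0 of 6, against 52.3% and 48.4%, because WT was at 0 as well. Over the 5 conditions Myh3 was higher in WT by 35.3 points, with a two-sided exact permutation p = 0.00926. That is the lowest p these values allow, because conditions in which each library is at 0 cannot vary. For the other 5 genes the lowest p possible was above 0.05, so the test could not call them. The WT libraries were higher by 25.9 points for Myh1 and 5.36 points for Myh8, where the lowest exact permutation p possible was 0.0556. Myh4 was higher by 8.997 points (lowest possible exact p = 0.167), Myh7 by 12.02 points (lowest possible exact p = 0.333) and Myh2 by 0.237 points (lowest possible exact p = 1). With the day 5 libraries alone Myh3 differed by 75.2 points, and its exact permutation p = 0.0556 is the lowest value possible with 36 arrangements. The libraries of a KO line over the days are the same line, which the permutation treats as independent.

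KO line 1 had peaks on many other genes at day 5. Of the 19304 genes, with or without a known strand, 1219 had at least 80% cover in both WT control libraries of day 5, and over these its median cover was 57.95%. Of these genes 46, or 3.77%, were at 0, as Myh3 was, and 9.84% were at or below the value of Myh1. Under restriction, 513 genes had at least 80% in both WT libraries, the median in KO line 1 was 4.23% and 32.0% were at 0. In KO line 2 85.6% of the 1219 genes were at 0. The summed cover of the myotube markers was 111.5 in KO line 1 at day 5 in control medium, with Myog and Ckm at 0, and 0 in KO line 2. The fibroblast sum in KO line 1 was 85.3 by control and 134.1 by restricted day 5, where WT had at most 122.6 and 70.8, with Dcn at 47.6% in the latter library. Its adipocyte sum was 3.78 and 31.8, where WT had at most 4.46 and 1.94. Cebpa had 26.7% in that restricted library, with Adipoq, Plin1 and Fabp4 at 0. The part of these marker values in the myosin values was not tested.

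Other genes of the thick filament and its regulation were taken from lists of related genes. Of 7 myosin light chain genes, which encode the small subunits that bind the heavy chain neck, 5 were tested. From day 0 to day 5 in control medium 4 of them rose and 0 fell, where 12.2% of all genes tested rose and 15.6% fell, and the median of the 5 was 25.6 points, against −1.17 over all genes. With the control libraries of day 5 counted as 0, 4 of the 5, Myl1, Mylpf, Myl4 and Myl6b, would have been under the limit of 5% mean cover, at 0.614% to 4.88%. Their rise and fall had to follow, and these counts are descriptions. Myl1 was at 0 at day 0 and had 62.0% ± 7.22 (SD, n = 2) by control day 5, and Mylpf was at 0 and had 43.5% in both libraries. Myl6, the nonmuscle light chain, was at 67.6% ± 0.0934 at day 0 and 66.7% ± 0.887 at day 5 (SD, n = 2). All 5 tested light chains fell with restriction at day 5, where 41.5% of all genes tested fell, with a median of −43.5 points against −9.16 over all genes. With each library centred on its median, 4 of the 5 were called lower, and Myl4 differed by −3.58 points (limma adjusted p = 0.261).

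Of 7 genes for thick filament partners, 5 were tested, and all 5 of these rose from day 0 to day 5 in control medium and fell with restriction, where 12.2% of all genes tested rose and 41.5% fell. The medians of these 5 were 84.7 and −35.48 points. Mybpc2, Myom1 and Myom3 passed the limit on cover through day 5 alone, Mybpc2 through the control libraries alone, so their rises, and the fall of Mybpc2, had to follow and these counts are descriptions. With centred libraries 3 of the 5 were called lower with restriction. Myom2 turned to a difference of 1.59 points (limma adjusted p = 0.771) and Myom1 had −7.79 points (limma adjusted p = 0.0839). Mybph, a myosin-binding protein, rose from 0 to 98.7% ± 1.23 (SD, n = 2) and was at 1.97% ± 2.79 (SD, n = 2) under restriction (limma adjusted p = 7.75e-06). Myom3 and Myom2, which encode M-band proteins that link thick filaments, had 90.7% ± 1.51 and 84.7% ± 0.252 in control medium (SD, n = 2). Under restriction they had 48.3% ± 0.722 and 69.6% ± 1.99 (SD, n = 2). In KO line 1 at day 5 in control medium Myom2 had 72.8%, while Myh3 was at 0 and Myom3 at 7.47%. The myosin chaperone gene Unc45b was at 0 at day 0, had 86.0% ± 3.31 by control day 5 and had 49.3% ± 5.42 under restriction (SD, n = 2), values near those of Myh1. Smyd1, a muscle methyltransferase needed for thick filament assembly, was at 0 and had 45.01% ± 4.57 with control and 32.9% ± 3.49 with restricted medium (SD, n = 2). These 2 genes also passed the limit through day 5 alone. Unc45b fell with restriction at day 5 (limma adjusted p = 1.11e-04), also with centred libraries. Smyd1 was called lower (limma adjusted p = 0.0107), but with centred libraries its difference turned to 4.52 points (limma adjusted p = 0.252). Both genes were at 0 in each KO library.

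Of 7 other myosin heavy chain genes, 3 were tested: from day 0 to day 5 in control medium 1 rose and 1 fell, where 12.2% of all genes tested rose and 15.6% fell. With restriction at day 5, 2 of the 3 fell, against 41.5% of all genes tested. Their medians were −1.61 and −50.23 points. With centred libraries the same 2, Myh7b and Myh9, were called lower and Myh10 was called higher, by 19.2 points (limma adjusted p = 0.00217). Myh7b, a slow-type gene on another chromosome, rose from 16.98% ± 2.07 to 91.3% ± 6.41 (SD, n = 2; limma adjusted p = 1.65e-05). It had 33.5% ± 8.63 under restriction (SD, n = 2; limma adjusted p = 6.80e-05). The nonmuscle gene Myh9 started at 97.5% ± 0.325, and its day 5 values were 95.9% ± 0.815 with control and 45.7% ± 0.730 with restricted medium (SD, n = 2; limma adjusted p = 7.90e-06 for restriction). In KO line 1 Myh9 had 91.7% at day 5 in control medium, where Myh7b was at 0. The nonmuscle gene Myh10 fell from 59.7% ± 5.12 to 37.0% ± 2.36 (SD, n = 2; limma adjusted p = 0.00369).

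Of 7 regulators of muscle genes, 6 were tested: from day 0 to day 5, 3 rose and 2 fell, against 12.2% and 15.6% of all genes tested. With restriction at day 5, 5 of the 6 fell, where 41.5% of all genes tested fell. The medians of the 6 were 7.73 and −47.26 points. Mef2c passed the limit on cover through the control libraries of day 5 alone, so its rise and fall had to follow. These counts, and those with centred libraries, include it and are descriptions. With centred libraries 4 were called lower and Eya1 was called higher, by 19.4 points (limma adjusted p = 8.57e-04), and Six4 differed by −12.33 points (limma adjusted p = 0.0565). Myog, which encodes myogenin, reached 71.9% ± 1.81 by control day 1 and 92.6% ± 1.20 by control day 5 (SD, n = 2), and was at 0 in every restricted WT library. Among the members, Myh3 was the 1 gene with cover at day 1 as well. Myod1, which encodes MyoD, started at 52.6% ± 3.54 and reached 72.6% ± 8.24 by control day 5 (SD, n = 2), and was also at 0 in every restricted WT library. Mef2c at day 5 had 32.9% ± 4.36 with control and 1.94% ± 0.0681 with restricted medium (SD, n = 2), and it passed the limit on cover through the former alone. In restricted medium at day 5 Myh3 and Myh1 had 57.3% and 50.1%, with Myog and Myod1 at 0. Covered sequence began 4.21 to 7.58 kb from the 5′ end of Myh3 and Myh1 in those libraries. The contrast takes no account of gene length.

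**Figure D5:**
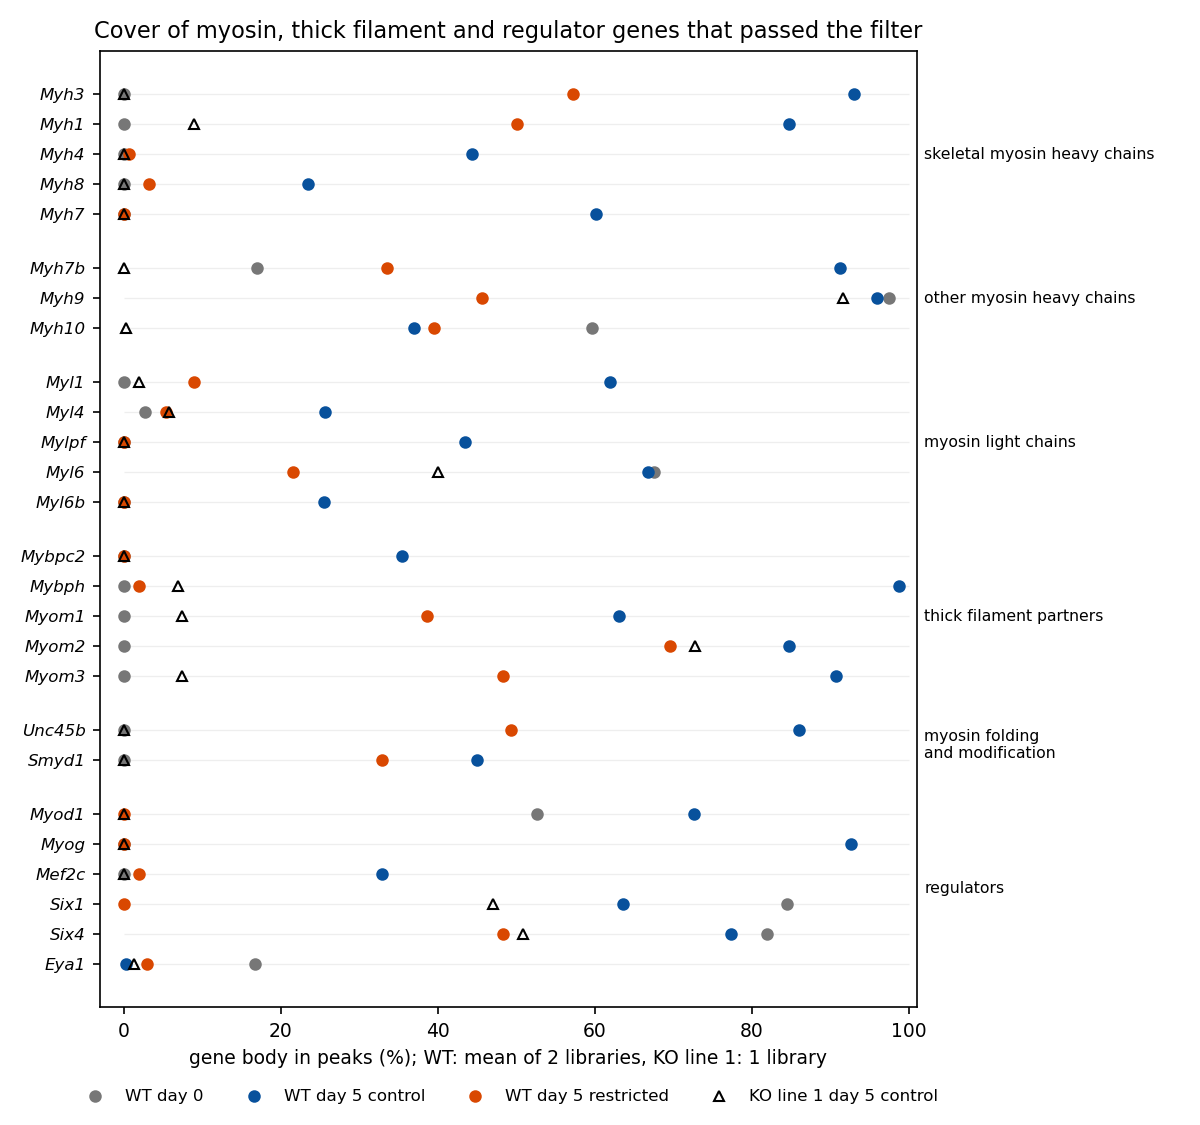
Percent of the gene body inside peaks (horizontal axis) for the genes of each list that were tested, grouped by list. Circles are means of 2 WT libraries at day 0, day 5 in control medium and day 5 under restriction, and triangles are the single library of KO line 1 at day 5 in control medium. Myh9 and Myom2 have triangles at 91.7% and 72.8%, while the triangle of Myh3 is at 0.

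The genes whose cover was most like that of a member over the 20 libraries were found by the mean absolute difference of cover. For Myh3 they were Cacna1s, the calcium channel that senses voltage in muscle (3.31 points), Apobec2 (3.54 points) and Dysf, which encodes the membrane repair protein dysferlin (3.71 points). Apobec2 was the 1 of these with day 1 cover near that of Myh3, at 23.6% in control medium. For Myh1 they were Dysf (1.24 points), Myom3 (1.40 points) and Cacna1s (1.58 points). For Myh4 they included Dhrs7c (0.425 points) and the muscle caveolin gene Cav3 (0.493 points). For Myh7 they were Bcam (0.865 points), Plpp7 (0.940 points) and Casq1, which encodes a calcium store protein of muscle (1.03 points). For Myh8 they were Omp, which another gene overlaps wholly, BC051019 and Tm6sf1, at 0.500 to 0.543 points. Small differences for each of these members, Myh3, Myh1, Myh4, Myh7 and Myh8, rest in part on libraries in which both genes are at 0. For Myh2 the nearest genes had almost no cover and are not named.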

How the data were processed

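H3K36me3 ChIP-seq libraries of C2C12 cells were analysed from 20 deposited peak lists in the broad-peak layout, 1 per library. Per the labels' protocols, Drosophila chromatin was added as a spike-in and reads were short and single-end. No spike-in scaling was applied here, and the input was not used here. The build is GRCm38, per the submitters' processing notes. The peak caller, its control and the read filters are not given in the sources used here. The authors' fold enrichment (a ratio) and −log10 p and −log10 q were deposited with each peak, and each was used within its own list only, for description and for the stricter limit. No peak had a −log10 q under 1.00. A score for each peak, also deposited, went unused. Peak names in the KO lists call the 2 KO lines replicates 1 and 2, and the labels were followed.

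Peaks of a library were merged, and the percent of each RefSeq gene body (GRCm38.p6) inside them was computed (Python 3.11.15, pandas 2.3.3). Single-end reads from near-identical myosin genes may be split or dropped, which was not tested. Protein-coding genes of at least 2 kb whose cover averaged 5% or more over the 10 WT libraries were tested with limma 3.58.1 (R 4.3.3), with trend and robust settings, in 1 fit of 5 groups. Calls are at a Benjamini-Hochberg adjusted p under 0.05. KO lines were compared with WT by exact permutation within conditions, two-sided. Alternatives were a −log10 q of at least 3, lists shortened to 109.9 Mb, peaks up to 1 kb apart joined, gene bodies without overlaps, no filter, median centring, fits of the compared groups alone, a replicate block and leaving out libraries. A KO test without the restricted day 1 libraries was added after the data were seen. Interval arithmetic and the limma step were tested on simulated data. The genes named are the members, the gene lists, neighbours of the loci and the 3 nearest genes per member, of which 1 is not reported here. The members and lists were chosen with earlier results of these data known.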

Additional observations from a re-analysis of the deposited data

Results flagged for a closer look

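For 3 of the 5 tested members the difference between the effects of restriction at day 5 and at day 1 was called, where 3.58% of all genes tested had a more negative effect at day 5 and 1.62% a more positive one, 5.2% in all. The values were −34.68 points for Myh1, −43.71 for Myh4 and −60.12 for Myh7. These genes were at 0 in both media on day 1, where they could not fall, so the values restate the day 5 differences and are no separate result. Myh4 and Myh7 were also tested through their control libraries of day 5 alone, and no p is given for them. For Myh1 the limma adjusted p was 0.0128, and the call was lost with peaks up to 1 kb apart joined (−25.60 points, limma adjusted p = 0.0652) and in 4 fits that left out 1 library, with adjusted p from 0.0512 to 0.0580. Those libraries were both of control day 1 and the second of each restricted group. Myh3, the 1 member with cover on day 1, differed by −9.72 points (SE 5.67, limma adjusted p = 0.392). With a −log10 q of at least 3 it differed by −44.35 points (limma adjusted p = 0.0162). Myh8 differed by −20.29 points.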

How the results depend on the processing

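Peak lists hold no depth, so a weak and an absent signal cannot be told apart. Both the strictness of the lists and centring moved the counts. With peaks limited to a −log10 q of 3 or more, and with lists of equal covered length, the number of members called fell from 1 to 0 for day 1 against day 0 and for restriction at day 1. It fell from 5 to 2, Myh3 and Myh1, for day 5 against day 0, day 5 against day 1 and restriction at day 5, as the other 3 genes were no longer tested. In a fit of the compared groups alone the day 1 count was 0, and that fit called 0 of all genes, 1898 at an unadjusted p under 0.05. With libraries centred on their medians, restriction at day 1 called 4 members higher, Myh1, Myh4, Myh8 and Myh7, and restricted day 5 against day 0 called 5. By construction a gene at 0 in both media gains 15.18 points there. Leaving out 1 library gave 0 to 1 members for day 1 against day 0, 0 without the first day 1 control library, and 2 to 4 for the difference between days. It left 5, 5, 1, 5 and 2 in the other comparisons. Centring also moved the split of higher and lower calls over all genes. It went from 92 and 539 to 227 and 108 for day 1 against day 0, and from 1157 and 1484 to 1615 and 1298 for day 5 against day 0. For day 5 against day 1 it went from 1627 and 566 to 988 and 1176. For restriction at day 1 it went from 226 and 3422 to 3518 and 1245, and for restricted day 5 against day 0 from 385 and 4139 to 4280 and 1402. In WT against KO, Myh3 differed by 75.18 points over the day 5 libraries alone (exact permutation p = 0.0556). Deviations of same-numbered WT libraries correlated across groups at −0.439 to 0.061, which cannot show whether libraries with the same number were paired. In a fit with the replicate number as a block the members called were 1, 5, 5, 1, 5, 2 and 3. Myh3 at day 1 had a limma adjusted p of 0.0196 in that fit. Of the alternatives for single members, 372 kept the call or its absence, 12 gained a call and 14 lost one. No difference called in either fit turned sign, but a main difference of 0 has no sign to turn. Direction was not compared where neither fit called the difference.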
